A study of Mus musculus with 56 samples.

Results

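The RNA of the mitochondrial genome was followed along the male reproductive tract of young and old mice. The genes described are those whose symbol begins with mt-, which are the 37 genes of the mouse mitochondrial chromosome. They were taken by symbol from the 53379 gene rows of the count table. They comprise 13 protein-coding genes, 2 rRNA genes and 22 tRNA genes, and all 37 had a row. Libraries of total RNA from testis, efferent ductules, initial segment, caput epididymis, corpus epididymis, cauda epididymis and vas deferens were compared. The mice were C57BL/6 males of 3 or 21 months, with no allele or agent named for any group. Each of the 14 groups of region and age held 4 libraries, which gave 56 libraries in all. By the study's methods the regions were dissected from the same animals, but the labels do not tie libraries to animals, so regions were treated as independent samples and the p-values measure the spread between libraries.

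Mitochondrial DNA is a small circular chromosome that is present in many copies in each cell. Its protein-coding genes encode core subunits of the respiratory chain: the mt-Nd genes belong to complex I, mt-Cytb to complex III, the mt-Co genes to complex IV and the mt-Atp genes to complex V, the ATP synthase. Both strands are transcribed as long precursors, in which tRNAs lie between most of the other genes and are cleaved out, and mt-Nd6 is the only protein-coding gene read from the light strand. The many other subunits of these complexes are encoded in the nucleus. In the epididymis, mitochondria supply the energy with which the epithelium sets the fluid around maturing sperm, and sperm carry their own mitochondria.

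Sequencing depth was between 11125279 and 20561967 counts per library. One nuclear locus of rRNA-like sequence, Gm42418, took from 1.27% to 49.7% of the counts of a library, the most in caput replicate 2 at 3 months. The shallowest libraries were replicates 1 and 4 of the efferent ductules at 21 months. Levels are given in CPM, the counts of a gene per fixed number of counts of the library, after the library's total was corrected by its TMM factor. Sums of marker genes, here and below, are in CPM of the uncorrected total and so are on another scale. Summed marker genes separated testis (germ cell markers at 13910 CPM or more against at most 750.6 elsewhere), efferent ductules, initial segment and vas deferens from all other regions. The short marker lists of caput, corpus and cauda did not mark their own regions. At 3 months the caput list had a median of 6673 CPM in the caput and 15290 CPM in the cauda, and for the cauda list the medians were 17760 CPM (caput) and 2717 CPM (cauda). Where these lists are named again, they stand for their genes and not for a region. In whole tissue, fewer cells of a type and less RNA per cell cannot be told apart, and this holds for every level given here.

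Together the 37 genes received 21564110 of 915330249 counts, or 2.356%. The 13 mRNAs took 11599299 counts and the 2 rRNAs 9962494, whereas the 22 tRNAs took 2317 in all. Among the mRNAs the counts lay on a few genes. mt-Co1, the catalytic subunit of complex IV, held 55.6% of all mitochondrial mRNA counts, mt-Cytb 13.4%, mt-Nd5 9.83%, mt-Nd4 8.11%, mt-Nd1 7.27%, mt-Nd2 4.16% and mt-Nd6 1.51%. These 7 genes held 99.85% of the mitochondrial mRNA counts. Per kilobase of gene, mt-Co1 was 3.08-fold above mt-Cytb and 12.4-fold above mt-Nd6. mt-Co1 ranked first and mt-Cytb second per kilobase in all 14 groups.

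The 5 mRNAs with near-identical nuclear copies were counted at very low levels. mt-Co2, mt-Atp6, mt-Co3, mt-Nd3 and mt-Nd4l received between 879 and 8591 counts per kilobase over the 56 libraries. The 7 well-counted mRNAs received between 336553 and 4174370 counts per kilobase, so the lowest of them stood 39.2-fold above the highest of the 5. Transcripts of annotated nuclear pseudogenes on chromosome 1, between positions 24612407 and 24615565 of GRCm38 on the minus strand, matched these 5 genes almost completely. On either side, out to 24611535 and 24616197, lie copies of parts of mt-Nd4 (Gm28439) and mt-Co1 (Gm29216). Of all stretches of 150 nt, the length of a read, 99.4% in mt-Co2, 99.4% in mt-Atp6, 99.8% in mt-Co3, 97.0% in mt-Nd3 and 98.0% in mt-Nd4l occurred unchanged in a nuclear copy. The share was 59.2% in mt-Nd4 and 23.6% in mt-Co1, and it was 0% in mt-Nd1, mt-Nd2, mt-Nd5, mt-Nd6, mt-Cytb and both rRNAs. Values per kilobase use the whole gene length. For mt-Nd4 and mt-Co1 the part of the copied stretches in these values, and in their ranks, was not tested. mt-Co2 and Gm28661 shared 681 of 681 compared positions, mt-Atp6 and Gm10925 678 of 678, mt-Co3 and Gm28437 783 of 783, and mt-Nd4l and Gm10222 294 of 294. The pair of mt-Nd3 and Gm28438 differed at 1 of 345 positions, T3C counted from the first base of mt-Nd3. The first 33 bases of this pair are shown because they hold the only difference found between these 5 genes and their copies, with the differing base in capitals.

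mt-Nd3: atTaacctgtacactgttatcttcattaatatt
Gm28438: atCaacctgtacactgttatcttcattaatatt

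The nuclear copies themselves received 4691 (Gm28661), 6800 (Gm10925), 8150 (Gm28437), 356 (Gm28438) and 562 (Gm10222) counts over the 56 libraries. These totals were of the size of those of mt-Co2 (5876), mt-Atp6 (3561), mt-Co3 (6714), mt-Nd3 (306) and mt-Nd4l (525). How reads that match more than 1 place were counted is not given in the sources used here, and the part of such reads in these low values was not tested. For these 5 genes the RNA of the gene and of its copy cannot be told apart.

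**Figure D1:**
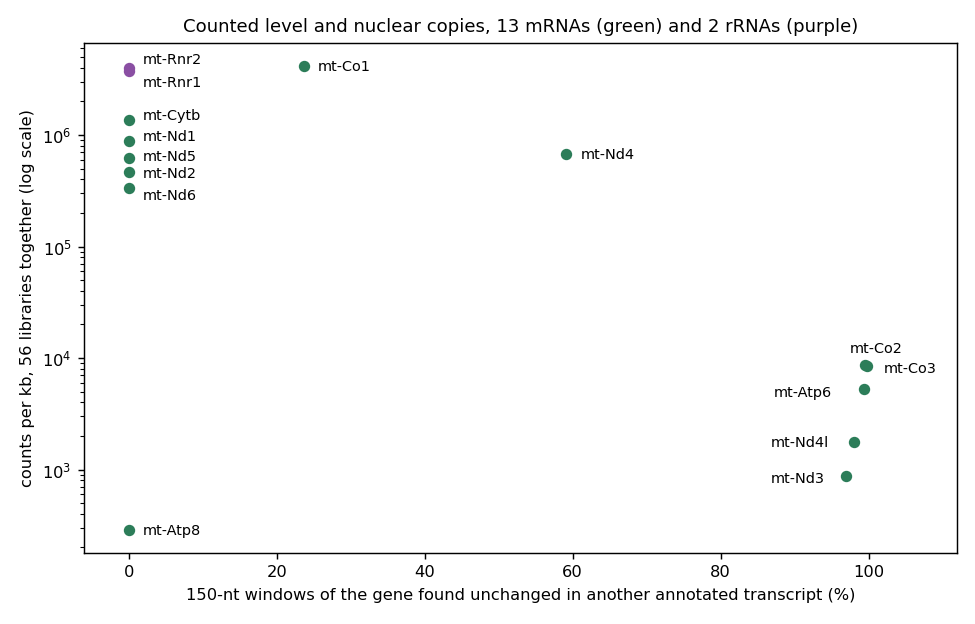
Counts per kilobase of the 13 mitochondrial mRNAs and 2 rRNAs, summed over 56 libraries (log axis), against the percentage of 150-nt stretches that occur unchanged in an annotated nuclear transcript. The 5 mRNAs with 97.0% to 99.8% of stretches copied lie at 879 to 8591 counts per kilobase, and the 7 well-counted mRNAs at 336553 or more.

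mt-Atp8, a small subunit of complex V, received only 59 counts. It is 204 nt long and its last 43 nt, in capitals, also belong to mt-Atp6, so only 12 of its 55 stretches of 150 nt lie outside mt-Atp6. On chromosome 1 a stretch of 233 positions lies between Gm10925, the copy of mt-Atp6, and Gm28661, the copy of mt-Co2, and whether it holds a copy of mt-Atp8 was not tested. The sequence is shown to let this overlap be seen.

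mt-Atp8: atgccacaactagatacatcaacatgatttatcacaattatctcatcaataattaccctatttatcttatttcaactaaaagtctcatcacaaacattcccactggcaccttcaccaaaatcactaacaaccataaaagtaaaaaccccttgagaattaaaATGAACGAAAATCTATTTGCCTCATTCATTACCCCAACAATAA

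The tRNA genes were close to undetected in these libraries. Between 5 and 103 counts fell on the 22 tRNA genes per library, and 7 genes (mt-Tf, mt-Tn, mt-Tk, mt-Tg, mt-Tr, mt-Ts2 and mt-Tl2) had 0 counts in every library. At this depth a count of 0 allows up to 3 counts per library. Another 5 genes had 1 to 9 counts over all libraries. mt-Tw (tryptophan) with 1120 counts, mt-Tq (glutamine) with 347 and mt-Tp (proline) with 323 held 77.3% of the tRNA counts. The tRNA genes are 59 to 75 nt long, shorter than a single read. The 3 most counted genes are shown with 3 of those at 0 (phenylalanine, lysine and glycine), since the genes differ in count while all are short; capitals mark the bases that overlap the neighbouring gene, which is mt-Nd2 for mt-Tw and mt-Ti for mt-Tq.

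mt-Tw: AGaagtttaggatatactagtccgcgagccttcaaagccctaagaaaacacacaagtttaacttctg
mt-Tq: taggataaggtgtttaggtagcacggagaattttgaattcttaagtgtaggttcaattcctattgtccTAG
mt-Tp: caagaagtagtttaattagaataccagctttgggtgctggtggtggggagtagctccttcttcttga
mt-Tf: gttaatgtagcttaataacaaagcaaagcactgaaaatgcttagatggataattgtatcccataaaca
mt-Tk: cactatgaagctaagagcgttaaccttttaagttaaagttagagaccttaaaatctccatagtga
mt-Tg: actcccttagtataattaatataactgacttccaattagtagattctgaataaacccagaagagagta

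mt-Tq and mt-Tp lie on the strand opposite to most genes, as do mt-Ts1, mt-Te and mt-Nd6. The strand setting of the counting is not given in the sources used here, so reads of these genes and of the opposite strand, which is transcribed through them, cannot be told apart. Of the mature tRNA itself these counts say little, because a read of 150 nt is longer than the molecule.

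The share of counts on mitochondrial mRNA differed between regions and, in some regions, between ages. In the testis the mRNA share was 0.707%, 0.667%, 0.589% and 0.629% at 3 months and 0.875%, 0.867%, 0.784% and 0.715% at 21 months. Each old testis library lay above each young one. The efferent ductules gave 1.10%, 1.32%, 1.12% and 1.45% at 3 months and 0.885%, 0.618%, 0.530% and 0.700% at 21 months. Here the old libraries lay below the young ones, although the ages overlapped when Gm42418 was left out of the totals. In the initial segment the values were 1.17%, 1.20%, 0.993% and 1.29% at 3 months and 1.65%, 1.63%, 1.14% and 1.32% at 21 months, and the ages overlapped.

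Farther along the epididymis the spread was wide in some groups, above all in the caput at 3 months and the cauda at 21 months. In the caput the share was 0.694%, 1.82%, 1.72% and 2.05% at 3 months and 0.9997%, 1.01%, 0.871% and 0.815% at 21 months. In the corpus it was 1.78%, 2.62%, 2.35% and 2.74% at 3 months and 1.996%, 1.79%, 1.46% and 1.66% at 21 months. The ages overlapped in both regions, and caput replicate 1 at 3 months lay below all other caput libraries. The cauda gave 1.25%, 1.20%, 0.944% and 1.27% at 3 months and 1.12%, 2.62%, 0.993% and 1.45% at 21 months, with replicate 2 at 21 months standing above the rest. In the vas deferens the share was 0.781%, 0.897%, 0.633% and 0.556% at 3 months and 1.76%, 1.27%, 2.11% and 1.88% at 21 months. The ages did not overlap in the vas deferens, and the old mean was 1.75% ± 0.353 (SD, n = 4) against 0.717% ± 0.152.

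With rRNAs and tRNAs added, the share of all 37 genes ranged from 0.643% in an efferent ductule library at 21 months to 10.4% in corpus replicate 4 at 3 months (10.37% to 10.40% as the 95% Wilson interval, for counting error alone). The corpus held the highest group means at both ages, 5.81% ± 3.14 (SD, n = 4) at 3 months and 5.11% ± 1.29 at 21 months. The lowest group mean was that of the vas deferens at 3 months, 0.870% ± 0.181, which was 2.08% ± 0.450 at 21 months. No test was made of these shares, since a share over the 37 genes is a sum led by mt-Co1, mt-Rnr1 and mt-Rnr2.

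**Figure D2:**
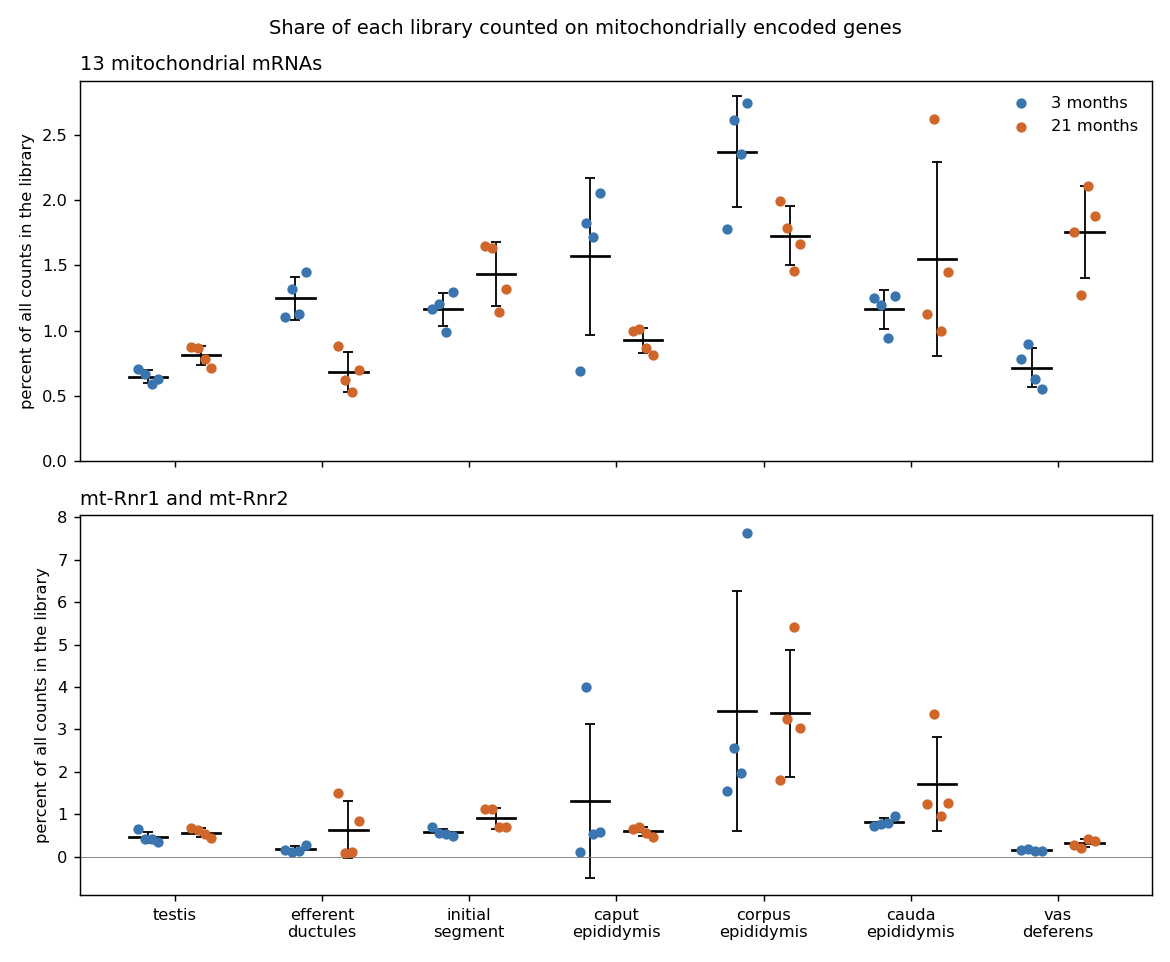
Percentage of a library's counts on mitochondrial mRNA and on mitochondrial rRNA in each region, with 1 point per library, 4 libraries per group, and group means and SD, at 3 and 21 months. The mRNA share of the vas deferens lies between 0.556% and 0.897% at 3 months and between 1.27% and 2.11% at 21 months, and the rRNA share is most spread in the corpus.

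Regions were then compared gene by gene, with each region set against the mean of the other 6 at the same age (edgeR's quasi-likelihood test, Benjamini-Hochberg adjusted over all genes tested). Levels are again in CPM. Of the 37 genes, 25 reached 10 counts over the 28 libraries at 3 months and 24 at 21 months. Since regions differ in a large part of all genes, each count of mitochondrial genes is given beside the percentage of all genes called in the same direction. All comparisons of 1 age share libraries, so the 7 regional results of an age are not independent.

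At 3 months the corpus had the highest group mean of mt-Co1, mt-Cytb, mt-Nd2 and mt-Nd4 among the well-counted mRNAs. For mt-Nd1, mt-Nd5 and mt-Nd6 the caput mean was higher, at 2035, 2698 and 302 CPM against 1860, 2593 and 259 CPM. mt-Co1 was at 12183, 15409, 13927 and 19426 CPM in the corpus, above every library of the other regions. The group mean was 15236 ± 3089 CPM in the corpus, then 7990.0 ± 2971 in the caput, 7682 ± 1212 in the cauda, 6132 ± 903 in the initial segment, 5458 ± 476 in the efferent ductules, 4314 ± 308 in the testis and 3305 ± 646 in the vas deferens (SD, n = 4). In this order the corpus did not overlap the caput, the efferent ductules did not overlap the testis, and the caput, cauda, initial segment and testis each overlapped with the region after it. In the corpus 16 of 25 genes were higher than in the other regions and 0 were lower (0 at an unadjusted p under 0.05 and 0 with DESeq2), beside 22.2% of all genes higher and 17.4% lower. The median log2 difference was 1.46 over the 25 genes and -0.13 over all genes tested. Of the 13 mRNAs, 12 were higher, among them mt-Co1 by 1.46 ± 0.14 (log2, SE, adjusted p = 4.18e-10), mt-Cytb by 1.62 and the complex I genes mt-Nd2 by 2.09 and mt-Nd4 by 1.68. mt-Nd6 was higher by 0.57 (adjusted p = 0.0452). The rRNAs mt-Rnr1 and mt-Rnr2 were higher by 3.93 and 2.95, and by 2.92 and 2.03 without the replicate 4 libraries of all regions. mt-Rnr1 was higher by 4.57 without those of replicate 2. mt-Nd6 did not pass without those of replicate 3 (0.58) or 4 (0.34). At 21 months 11 of 24 genes were higher in the corpus (21.9% of all genes) and 0 lower by the same test (0 unadjusted, 0 with DESeq2, 15.9% of all genes), with mt-Co1 at 13027, 12733, 12154 and 12543 CPM and 1.02 ± 0.15 above the other regions (adjusted p = 1.15e-06). One cauda library of that age, replicate 2, was higher still at 17384 CPM, and the mRNA share of the vas deferens, 1.75% ± 0.353, was within the spread of that of the corpus, 1.73% ± 0.225. With Gm42418 left out of the totals these means were 1.85% and 2.35%. The highest vas deferens library (2.21%) then lay below the lowest corpus library (2.26%). Gm42418 was also high in the corpus, at 10.4% to 36.0% of counts. With library scaling computed without Gm42418 and the mitochondrial genes, 15 genes were higher at 3 months and 11 at 21 months.

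The testis had low mitochondrial mRNA at both ages. At 3 months 0 of 25 genes were higher (0 unadjusted, 0 with DESeq2, 44.1% of all genes) and 11 were lower (33.8% of all genes), with a median of -1.03 against 0.13 for all genes. mt-Nd5 was lower by 1.68 ± 0.35, mt-Cytb by 1.56 ± 0.31 and mt-Co1 by 0.77 ± 0.17 on the log2 scale (adjusted p = 6.59e-05, 4.75e-05 and 0.000124). The tRNA gene mt-Tq gave -2.47, or -3.25 without the replicate 3 libraries of all regions, from 0 to 3 counts per testis library. At 21 months 12 of 24 were lower (34.4% of all genes) and 0 higher (0 unadjusted, 0 with DESeq2, 43.1% of all genes), mt-Nd4 by 1.04 and mt-Cytb by 1.10. Without the replicate 4 libraries of all regions 6 were lower. With DESeq2 size factors, which moved the median of all genes in the testis by 0.42 at 3 months and 0.45 at 21 months, 6 and 5 genes were lower. The rRNAs of the testis did not pass the test at either age, with adjusted p of 0.318 (mt-Rnr1) and 0.381 (mt-Rnr2) at 3 months.

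The vas deferens changed its place between the ages. At 3 months 11 of its 25 genes were lower than in the other regions (24.1% of all genes) and 4 were higher (24% of all genes). Of the 13 mRNAs 8 were lower, among them mt-Co1 with -1.02 ± 0.17, mt-Nd1 with -1.57 ± 0.36, mt-Cytb with -1.35 ± 0.31 and mt-Nd4 with -1.11, while mt-Nd6 did not pass (adjusted p = 1). The rRNAs were lower by 3.52 (mt-Rnr1) and 2.37 (mt-Rnr2). All 4 higher genes were tRNA genes, of which mt-Tw had 45, 53, 39 and 34 counts per library and mt-Tq 15, 17, 26 and 20. mt-Ta had 2, 3, 1 and 3 counts. mt-Ti, with 5, 2, 2 and 1 counts and 2 in all other regions together, reached the minimum of 10 counts only through the vas deferens and so had to differ. The same held the other way for mt-Ts1, with 0 counts in the vas deferens and 56 elsewhere, which leaves 10 lower and 3 higher genes. At 21 months 10 of 24 were higher (24.1% of all genes) and 2 lower (18.5% of all genes). mt-Nd5 was then higher by 1.04 ± 0.16, mt-Nd4 by 0.99, mt-Nd2 by 0.95 and mt-Cytb by 0.80 ± 0.17, whereas mt-Co1 gave 0.09 (adjusted p = 0.768) and the rRNAs were the 2 lower genes, by 2.36 and 1.71.

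In the caput 13 of 25 genes were higher at 3 months (25% of all genes) and 0 lower (0 unadjusted, 0 with DESeq2, 16% of all genes), among them mt-Rnr2 with 1.95 and mt-Cytb with 1.42. Without replicate 2, the library with 49.7% of its counts on Gm42418, 6 genes were higher, mt-Cytb gave 0.62 and mt-Rnr2 turned to -0.40, and without the replicate 3 libraries of all regions 2 were lower. At 21 months the caput had 6 of 24 genes lower (15.6% of all genes) and 0 higher (0 unadjusted, 0 with DESeq2, 21.9% of all genes), mt-Nd2 by 0.88 and mt-Nd5 by 0.84, and this count was 2 without the replicate 1 or the replicate 4 libraries of all regions and 10 without those of replicate 2. In the efferent ductules 7 of 25 genes were lower and 1 higher at 3 months (19.6% and 27.7% of all genes), or 6 lower without mt-Atp8, which had 0 counts there and 27 elsewhere and so reached the minimum only through the other regions, with mt-Rnr1 at -2.77 (-2.09 without the replicate 2 libraries of all regions) and mt-Rnr2 at -2.48. Without the replicate 4 libraries of all regions 4 were lower, and the higher gene, mt-Tm, was lost without those of replicate 1, 2 or 4. At 21 months 10 of 24 were lower there (19.9% of all genes) and 0 higher (0 unadjusted, 0 with DESeq2, 26.3% of all genes), mt-Nd2 by 1.74 ± 0.25 and mt-Nd4 by 1.38 ± 0.18.

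The initial segment had 1 gene higher, mt-Ts1, and 1 lower, mt-Tw, at 3 months (21.7% and 18% of all genes). Without the replicate 1 libraries of all regions 0 were higher, and without those of replicate 2 there were 2. At 21 months 11 of 24 were higher there and 1, mt-Tw, was lower (24.4% and 19.7% of all genes), among the higher ones mt-Nd1 by 0.86, mt-Atp6 by 0.94 and mt-Ts1, a serine tRNA gene, by 4.70. One of the 11, mt-Te, had 17 counts there and 9 in all other regions together, so it reached the minimum of 10 only through the initial segment, which leaves 10. The count of 11 was 7 without the replicate 1 or replicate 3 libraries of all regions and 5 without those of replicate 4. The cauda had 2 higher genes at 3 months, mt-Co3 with 0.97 and mt-Tt with 2.05, or 2.93 without the replicate 4 libraries (23.7% of all genes), and 0 lower (1 unadjusted, 1 with DESeq2, 13.9% of all genes). Only 1 was higher without the libraries of replicate 1, 2 or 3, and 1 was lower without those of replicate 1. At 21 months 8 of 24 were higher in the cauda (23.8% of all genes) and 0 lower (0 unadjusted, 0 with DESeq2, 15.3% of all genes), and without the replicate 2 libraries of all regions 1 was higher and 1 lower. Since mt-Co2, mt-Co3, mt-Atp6, mt-Nd3 and mt-Nd4l cannot be told apart from their nuclear copies, regional differences of these 5 genes may hold reads of both.

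**Figure D3:**
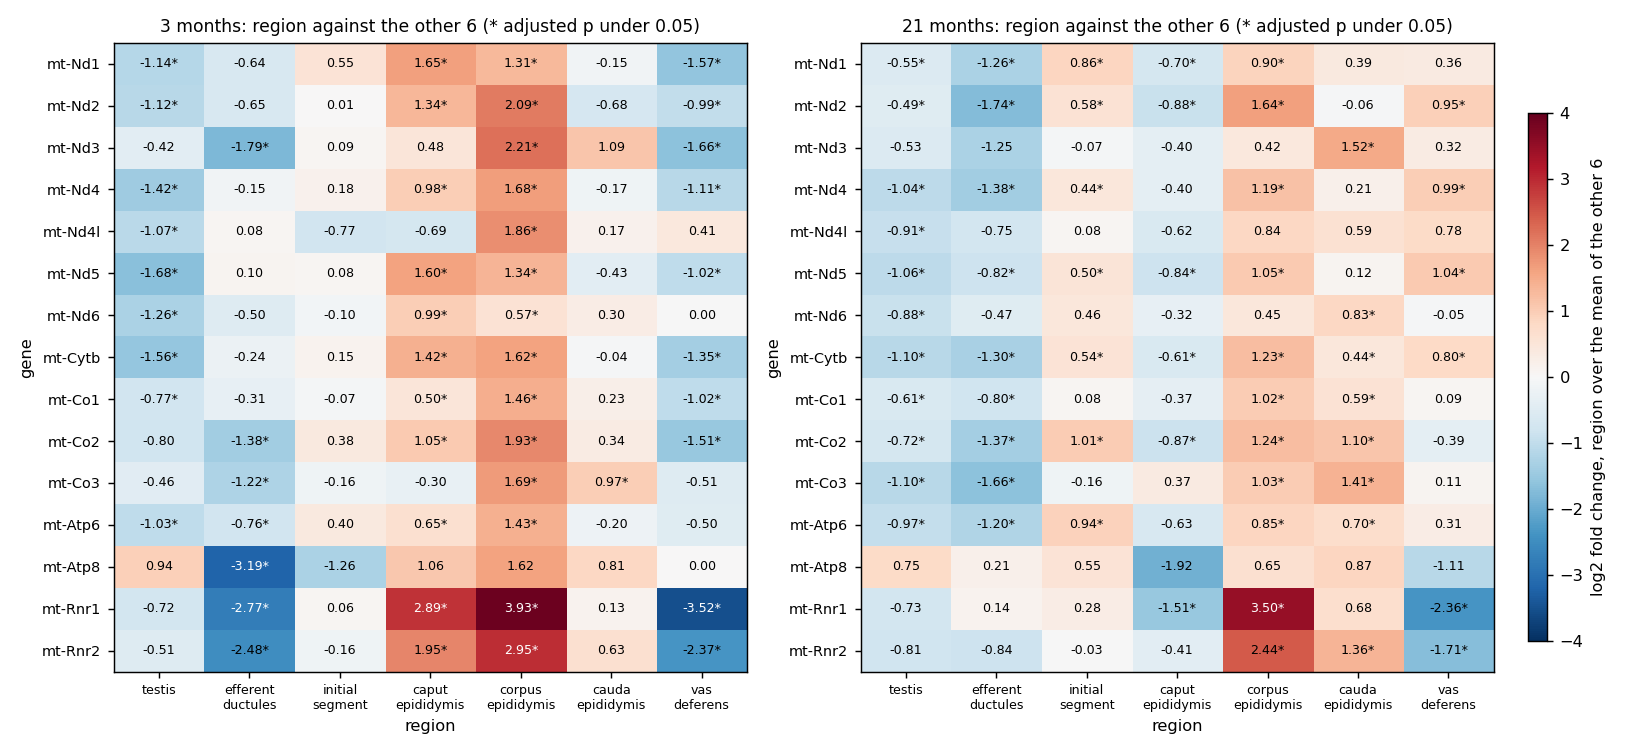
Log2 difference between each region and the mean of the other 6 for the 13 mitochondrial mRNAs and 2 rRNAs at 3 and 21 months, as a heat map with genes in rows, regions in columns, the value printed in each cell and an asterisk where the adjusted p was below 0.05. The corpus column is positive at both ages for mt-Co1 (1.46 and 1.02), and the vas deferens column turns from negative to positive for mt-Cytb (-1.35 and 0.80).

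In the vas deferens, genes of the same chromosome did not move in parallel between ages, as their shares of the mitochondrial mRNA counts show. These shares carry no test. In the cauda the mean shares of mt-Co1 (61.7% at 3 months and 62.3% at 21 months) and mt-Nd6 (1.88% and 1.89%) were close. mt-Co1 made up between 47.5% and 64.9% of mitochondrial mRNA counts over the 14 group means. The lowest mean was that of the vas deferens at 21 months, 47.5% ± 2.58, against 57.9% ± 2.92 at 3 months (SD, n = 4). mt-Cytb made up 11.2% of the vas deferens mRNA counts at 3 months and 15.7% at 21 months. mt-Nd6, the light-strand gene, made up 3.05% ± 0.213 at 3 months, the highest of the 14 group means, and 1.16% ± 0.136 at 21 months, and the ages did not overlap. Per kilobase, mt-Nd6 was last or next to last of the 7 well-counted mRNAs in all groups but the vas deferens at 3 months. There its mean of 336 ± 73.1 CPM per kilobase (SD, n = 4) lay within the spread of those of mt-Nd1 (332 ± 73.4), mt-Nd5 (330 ± 138) and mt-Nd4 (324 ± 101). mt-Nd4 has a nuclear copy of part of its length, and the effect on its value was not tested.

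Ages were then compared within each region, with 21 months set against 3 months (edgeR's quasi-likelihood test, Benjamini-Hochberg adjusted over all genes of that region). The same 4 libraries per group serve both here and in the comparison of regions. Between 18 and 21 of the 37 genes reached the total of 10 counts over the 8 libraries of a region. The genes that did not were tRNA genes and, in some regions, mt-Atp8, so the mRNAs and rRNAs carry these counts.

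Of the 7 well-counted mRNAs, 6 were higher at 21 months in the vas deferens. mt-Cytb, the only mitochondrial subunit of complex III, was at 698, 894, 535 and 471 CPM at 3 months and at 2373, 1561, 3196 and 2525 CPM at 21 months. Each old library lay above each young one, and the difference was 1.83 ± 0.229 (log2, SE) or 3.55-fold (adjusted p = 0.000884). mt-Co1 was at 3630, 4013, 3020.4 and 2555 CPM at 3 months and at 6952, 5414, 8865 and 7475 CPM at 21 months. It also did not overlap between ages and was 2.08-fold higher at 21 months (log2 1.05 ± 0.169, adjusted p = 0.00242). mt-Nd4, a membrane subunit of complex I, was at 507, 610.0, 375 and 295 CPM and then at 1678, 1079, 2052 and 1690.4 CPM, 3.48-fold higher without overlap (adjusted p = 0.000963).

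In all, 9 of the 21 vas deferens genes tested were higher at 21 months, beside 11.4% of all genes, and 0 were lower (0 unadjusted, 0 with DESeq2), beside 8.47% of all genes. The other higher genes were mt-Nd5 (log2 1.70), mt-Nd1 (1.66), mt-Nd2 (1.55), mt-Rnr1 (1.63), mt-Rnr2 (0.99) and mt-Atp6 (0.80). The median over the 12 mRNAs tested was 1.30, and that over all genes tested was 0.02. Between ages 10 of the 21 genes did not overlap, beside 24.2% of all genes. Leaving out any 1 library gave 7 to 10 higher genes. mt-Nd6, whose product is a complex I subunit like those of the other mt-Nd genes, did not pass the test. It was at 174.5, 227.9, 149.6 and 145.4 CPM at 3 months and at 181.6, 104.2, 218.0 and 209.7 CPM at 21 months, and the ages overlapped (log2 -0.03 ± 0.210, adjusted p = 0.941). mt-Tw (adjusted p = 0.926) and mt-Tp (adjusted p = 1) did not pass either.

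Markers of several cell types moved with age in the vas deferens. All 5 T cell markers were higher, their sum rising from between 4.00 and 7.35 CPM to between 16.03 and 41.64 CPM. Of 6 smooth muscle markers 4 were higher, with sums of 14520 to 15160 CPM at 3 months and 14580 to 21840 CPM at 21 months. Sums of the vas deferens markers lay between 25360 and 27170 CPM at 3 months and between 12020 and 20290 CPM at 21 months. Of 18 marker lists 5 had every old library above every young one (T cell, Sertoli cell, motile cilia, corpus and cauda) and 2 had every old library below (vas deferens and endothelium). The part of these in the mitochondrial differences was not tested.

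In the testis the age differences were small. mt-Nd5, a membrane subunit of complex I, was at 539.9, 481.8, 398.3 and 415.8 CPM at 3 months and at 778.5, 686.0, 598.4 and 541.9 CPM at 21 months. The ages did not overlap, and the old mean was 1.42-fold higher (log2 0.50 ± 0.0893, adjusted p = 0.00629). mt-Co1 was at 4631, 4461, 3916 and 4247 CPM at 3 months and at 5615, 5608, 5159 and 4698 CPM at 21 months, a 1.22-fold difference without overlap (log2 0.29 ± 0.0571, adjusted p = 0.0172). Together with mt-Nd1 (0.56), mt-Cytb (0.42), mt-Nd6 (0.38) and mt-Nd4 (0.37), 6 of 19 genes were higher, beside 0.353% of all genes, and 0 were lower (1 unadjusted, 0 with DESeq2), beside 0.21% of all genes. The median over the 13 mRNAs was 0.345, and over all genes it was -0.01. Between ages 3 of the 19 did not overlap, beside 6.3% of all genes. The differences kept their direction and most of their size without any 1 library (0.41 to 0.59 for mt-Nd5, 0.45 to 0.71 for mt-Nd1, 0.35 to 0.51 for mt-Cytb and 0.24 to 0.34 for mt-Co1), while the number past the threshold varied. The count was 0 without replicate 2 at 21 months, 1 without replicate 1 or 3 at 21 months, 2 without replicate 3 and 3 without replicate 4 at 3 months, and DESeq2 called 3. In a fit of all 56 libraries with 1 shared spread, 0 testis genes passed. Of 18 marker lists, that of the cauda was higher (118.2 to 148.6 and then 150.5 to 200.8 CPM) and that of smooth muscle lower (290.9 to 318.3 and then 260.4 to 282.6 CPM) in every old library, and their part was not tested.

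The caput libraries at 3 months differed widely among themselves. mt-Nd5 was at 644.7, 6004, 1852 and 2292 CPM at 3 months and at 601.3, 824.9, 661.2 and 555.6 CPM at 21 months. Replicate 1 at 3 months fell within the old range, and the other 3 young libraries lay above all old ones. The fitted difference was -2.17 ± 0.510 on the log2 scale (adjusted p = 0.0228), and -1.27 without replicate 2 at 3 months. mt-Nd1 (-2.03), mt-Nd2 (-2.03), mt-Cytb (-1.77) and mt-Nd4 (-1.19) were lower as well, with mt-Nd1 at -1.02 and mt-Cytb at -0.93 without that library, while mt-Co1 gave -0.65 (adjusted p = 0.145). Of 20 genes 6 were lower, beside 5.05% of all genes. The sixth, mt-Ts1, had 3, 7, 18 and 4 counts at 3 months and 0 in each library at 21 months, so it reached the minimum of 10 counts only through the young libraries and had to differ, which leaves 5. By the same test 0 were higher (1 unadjusted, 0 with DESeq2), beside 3.09% of all genes. Between ages 2 of the 20 did not overlap, beside 15.6% of all genes. The number of lower genes was 12 without replicate 1, 2 without replicate 2 or 4 and 3 without replicate 3 at 3 months. It was 0 without replicate 1 or 3 and 1 without replicate 2 or 4 at 21 months. Smooth muscle markers were lower in 5 of 6 cases, at 645.8 to 1540 CPM in the young and 841 to 975.3 CPM in the old libraries, and 3 of 5 T cell markers were higher. T cell and red blood cell markers were the 2 of 18 lists with every old library above every young one, and the part of these markers was not tested.

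In the efferent ductules 3 complex I mRNAs were lower at 21 months. mt-Nd4 was at 690.0, 894.6, 765.9 and 1061 CPM at 3 months and at 492.2, 376.2, 360.4 and 352.5 CPM at 21 months, which did not overlap (log2 -1.04 ± 0.188, adjusted p = 0.0146). mt-Nd2 gave -1.03 (adjusted p = 0.0337) and mt-Nd5 -0.84 (adjusted p = 0.0310). They were 3 of 18 genes tested, beside 2.98% of all genes, and 0 genes were higher (2 unadjusted, 1 with DESeq2), beside 4% of all genes. Between ages 4 of the 18 did not overlap, beside 17.4% of all genes. mt-Cytb (-0.89, adjusted p = 0.0626) and mt-Co1 (-0.29, adjusted p = 0.436) did not pass. The count of lower genes was 0 without replicate 4 at 3 months and 1 without replicate 1 or 2 at 3 months or replicate 2, 3 or 4 at 21 months. Without replicate 2 at 21 months 1 gene was higher.

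The old efferent ductule libraries were not alike. Replicates 1 and 4, the shallowest of all, held 22.2% and 18.5% of counts on Gm42418, replicates 2 and 3 held 4.93% and 14.9%, and the young libraries held 1.27% to 3.29%. mt-Rnr2 was at 952, 699, 952 and 1552 CPM at 3 months and at 8106, 458, 692 and 4740 CPM at 21 months, so that old replicates 1 and 4 lay above and replicates 2 and 3 below all young libraries. Without old replicates 1 and 4, 10 genes were lower, mt-Co1 by 0.76 and mt-Cytb by 1.41, and mt-Rnr2 turned from 1.86 to -0.83. Initial segment markers summed to 2.08 to 3.65 CPM in the young and 2.34 to 955.7 CPM in the old libraries, which overlapped, the high sums being those of old replicates 2 and 3, and 4 of 5 passed the test as higher. Of 18 marker lists 4 had every old library above every young one (T cell, red blood cell, clear cell and cauda) and 3 had every old library below, including the markers of the efferent ductules themselves, at 4599 to 5138 CPM at 3 months and 2953 to 3544 CPM at 21 months. Of these 5 markers 1 was lower by the test. The endothelial markers were at 356.5 to 420.8 and then 198.9 to 325.9 CPM, with 0 of 5 past the test, and Leydig cell markers were also below. The part of these markers in the mitochondrial differences was not tested.

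In the initial segment 6 of 20 genes were higher at 21 months, beside 3.35% of all genes, and 0 lower (0 unadjusted, 0 with DESeq2), beside 3.01% of all genes. mt-Nd6 was at 190.5, 179.1, 164.2 and 161.8 CPM at 3 months and at 256.7, 231.9, 186.7 and 222.4 CPM at 21 months, and 1 old library fell within the young range (log2 0.51 ± 0.0887, adjusted p = 0.00387). The rRNAs mt-Rnr1 (0.84, adjusted p = 0.0144) and mt-Rnr2 (0.57, adjusted p = 0.0452) and mt-Co2 (0.63, adjusted p = 0.0466) were higher by less than 1 on the log2 scale. The remaining 2 were tRNA genes with few counts. mt-Ts1 had 6, 3, 1 and 2 counts at 3 months and 16, 9, 11 and 12 at 21 months, and mt-Te, a glutamate tRNA gene, had 0 counts in each young library and 4, 2, 7 and 4 in the old. mt-Te reached the minimum of 10 counts only through the old libraries and so had to differ, which leaves 5 of the 6. Between ages 2 of the 20 did not overlap, beside 18.5% of all genes. The count of higher genes was 1 without replicate 2 at 3 months and 3 without replicate 3 or 4 at 3 months or replicate 1, 2 or 4 at 21 months, and the fit of all 56 libraries gave 1. Of 12 germ cell markers 9 were lower, with sums of 50.6 to 144.8 CPM at 3 months and 14.7 to 47.7 CPM at 21 months. Smooth muscle markers (2 of 6 lower) were at 2647 to 3200 and then 2121 to 2435 CPM, T cell markers (3 of 5 higher) at 4.24 to 4.58 and then 6.94 to 8.82 CPM, and corpus markers also did not overlap, in 4 of 18 lists in all. The part of these was not tested.

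In the corpus and the cauda no mitochondrial gene passed the test between ages. In the corpus 0 of 20 were higher and 0 lower (0 and 4 at an unadjusted p under 0.05, and 0 and 0 with DESeq2), beside 1.5% and 1.47% of all genes. mt-Co1, at 12183 to 19426 CPM at 3 months and 12154 to 13027 CPM at 21 months, gave -0.29 ± 0.140 (log2, adjusted p = 0.300). Without replicate 1 at 3 months, 2 corpus genes were lower. No gene was free of overlap between ages in either region, beside 8.68% of all genes in the corpus and 8.02% in the cauda. In the cauda 0 of 20 were higher and 0 lower (3 and 0 unadjusted, 0 and 0 with DESeq2), beside 0.07% and 0.0583% of all genes. mt-Co1 was there at 8056, 7981, 5940.2 and 8750.4 CPM at 3 months and at 7704, 17384, 6852 and 9581 CPM at 21 months (log2 0.44 ± 0.274, adjusted p = 0.598). Replicate 2 at 21 months exceeded all other cauda libraries, and without it mt-Co1 gave 0.08.

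With another call rule, a fitted change of at least 1.5-fold at an unadjusted edgeR p under 0.05, other counts result. The study used these thresholds for its own comparison of ages, there with DESeq2. In the vas deferens 11 genes were then higher and 0 lower, beside 12.4% and 5.43% of all genes. The caput had 1 higher and 13 lower (4.75% and 8.48%), and the efferent ductules 2 higher and 4 lower (6.68% and 6.16%). The initial segment had 4 higher and 0 lower (6.01% and 5.45%), and the testis 1 higher and 0 lower (1.42% and 1.3%). The 4 of the initial segment include mt-Te, and the 13 of the caput include mt-Ts1. Both genes reached the minimum count there only through the libraries of a single age and so had to differ. The corpus had 0 higher and 1 lower (3.48% and 3.36%), and the cauda 3 higher and 0 lower (3.54% and 4.76%). The 3 cauda genes were mt-Rnr1 (1.13), mt-Rnr2 (1.08) and mt-Co2 (0.76), which did not pass the adjusted test (adjusted p = 0.284, 0.322 and 0.473). Without cauda replicate 2 at 21 months mt-Rnr2 gave 0.51.

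**Figure D4:**
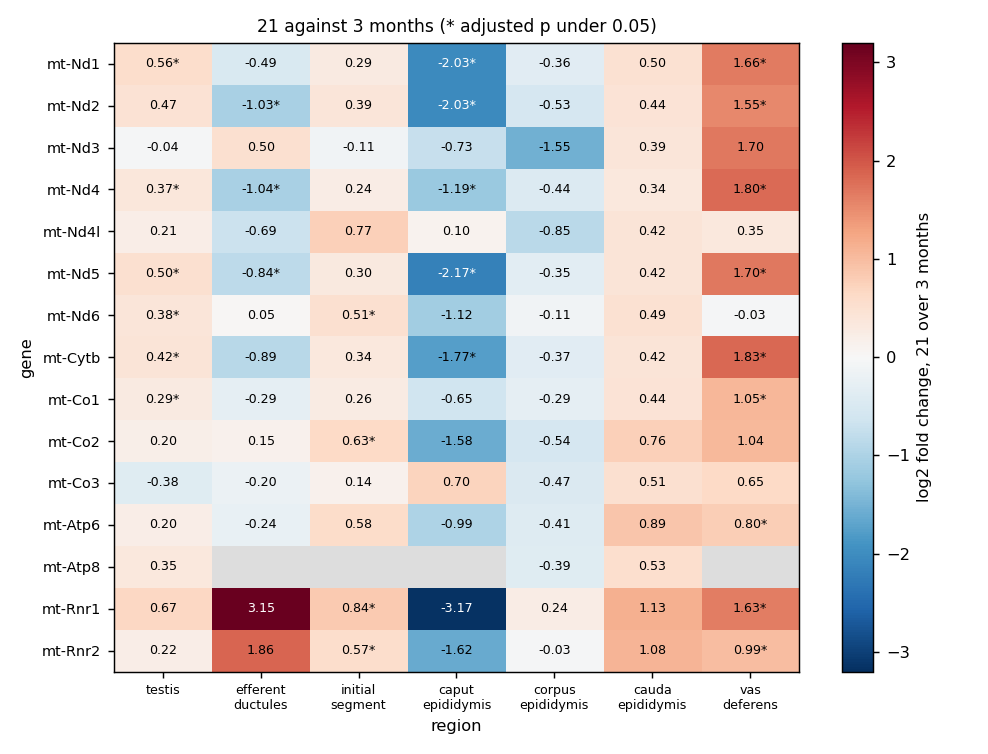
Log2 difference between 21 and 3 months for the 13 mitochondrial mRNAs and 2 rRNAs, as a heat map with genes in rows, regions in columns, the value printed in each cell, an asterisk where the adjusted p was below 0.05 and grey where a gene was not tested. In the vas deferens mt-Cytb is at 1.83 and mt-Nd6 at -0.03, in the efferent ductules mt-Nd4 is at -1.04 and in the caput mt-Nd5 at -2.17.

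The age difference itself was tested for unequal size over the 7 regions, in 1 fit of all 56 libraries. Of the mitochondrial genes, 11 passed this test, beside 20.2% of the 36977 genes tested. They were mt-Nd4 (adjusted p = 3.26e-07), mt-Cytb (2.99e-06), mt-Nd5 (3.7e-06), mt-Nd2 (2.08e-05), mt-Nd1 (0.000115), mt-Ts1 (0.000449), mt-Co1 (0.000514), mt-Rnr1 (0.00357), mt-Te (0.0135), mt-Atp6 (0.0139) and mt-Co2 (0.0325). mt-Nd6 (0.0872), mt-Co3 (0.0564) and mt-Rnr2 (0.104) did not pass. Of the complex I mRNAs with ample counts, mt-Nd1, mt-Nd2, mt-Nd4 and mt-Nd5 were thus among those whose age difference varied with region, with mt-Nd4 between -1.19 in the caput and 1.80 in the vas deferens. Leaving out the libraries of 1 replicate number gave 7 genes (without replicate 2 or 4) to 11.

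The 2 rRNAs did not follow the mRNAs in every region. With age the mean shares of both rose alike in the testis (1.25-fold each) and vas deferens (2.45-fold for mRNA, 2.10-fold for rRNA). In the efferent ductules the old mean was 0.547 times the young one for mRNA and 3.65 times for rRNA, and the rRNA shares overlapped. The ratio of rRNA to mRNA counts was 0.541 to 0.926 in the 8 testis libraries, 0.381 to 0.688 in those of the initial segment and 0.155 to 0.237 in those of the vas deferens. In the efferent ductules it was 0.151, 0.0849, 0.117 and 0.196 at 3 months and 1.68, 0.129, 0.213 and 1.22 at 21 months, the high values being those of replicates 1 and 4. The caput gave 0.162, 2.20, 0.309 and 0.281 at 3 months and 0.570 to 0.700 at 21 months. In the corpus the ratio was 0.873, 0.982, 0.841 and 2.79 at 3 months and 0.908, 1.82, 3.71 and 1.83 at 21 months, with the highest single value of all regions, and in the cauda it lay between 0.584 and 1.28. mt-Rnr2, the large-subunit rRNA, exceeded mt-Rnr1, the small-subunit rRNA, in every library, by 1.08-fold to 9.29-fold in counts. mt-Rnr2 is also the longer gene, at 1582 against 955 nt. Per kilobase mt-Rnr2 was the higher in 45 libraries and mt-Rnr1 in 11, which were 7 of the corpus, 3 old efferent ductule libraries and caput replicate 2 at 3 months.

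The ratio was set beside the share of Gm42418. Caput replicate 2 at 3 months had a ratio of 2.20 and 49.7% of counts on Gm42418, and corpus replicate 3 at 21 months had 3.71 and 36.0%. The cauda, with 13.2% to 17.9% on Gm42418, had lower ratios than efferent ductule replicate 1 at 21 months, with 22.2% and a ratio of 1.68. Efferent ductule replicate 3 at 21 months, with 14.9% on Gm42418, had a ratio of only 0.213. How much rRNA was removed from each library before sequencing is not known from the counts, and the part of this step in the ratio was not tested.

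**Figure D5:**
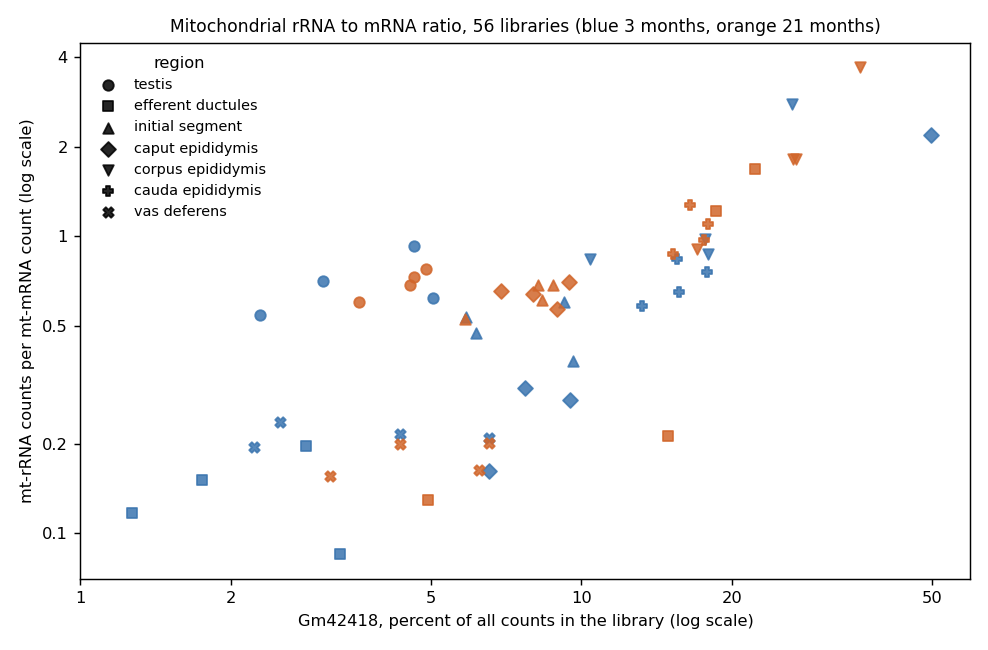
Ratio of mitochondrial rRNA counts to mitochondrial mRNA counts (log axis) against the percentage of counts on Gm42418, also on a log axis, with 1 point per library, shape for region and colour for age (blue 3 months, orange 21 months). The vas deferens libraries lie at ratios of 0.155 to 0.237, and the highest ratio, 3.71, is that of a corpus library with 36.0% of counts on Gm42418.

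The nuclear genes for subunits of complexes I to V, a list of 75 genes with every one tested, were compared between ages in the same way, and the difference between both sets of genes was not tested. In the vas deferens 31 of 75 were higher and 12 lower, beside 11.4% and 8.47% of all genes, with a median of 0.10 against 1.30 for the mitochondrial mRNAs. The higher ones included Ndufa13 (1.60) and Ndufa2 (1.35), accessory subunits of complex I, and the lower ones Ndufb6 (-1.07), also of complex I, and Cox7a2 (-1.06), of complex IV. Of the 75, 8 nuclear genes were higher and 0 lower in the efferent ductules (4% and 2.98% of all genes), with a median of 0.38, while the mitochondrial mRNAs had a median of -0.39. In the caput 12 were higher and 4 lower (3.09% and 5.05% of all genes), with medians of 0.11 for the nuclear and -1.16 for the mitochondrial genes. In the testis 0 were higher and 3 lower (Sdhd, Cox5a and Atp5e, by 0.32, 0.30 and 0.34), beside 0.353% and 0.21% of all genes. In the initial segment the counts were 0 and 1 (Cox5a, by 0.40), beside 3.35% and 3.01%. They were 0 and 0 in the corpus, beside 1.5% and 1.47%, and 0 and 0 in the cauda, beside 0.07% and 0.0583%. Between regions at 3 months, 49 of the 75 nuclear genes were higher and 5 lower in the corpus (median 0.47), beside 22.2% and 17.4% of all genes, where the mitochondrial mRNAs were high too. In the testis 23 were higher and 38 lower (median -0.22), beside 44.1% and 33.8% of all genes. In the vas deferens 19 were higher and 39 lower (median -0.25), beside 24% and 24.1%.

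Genes for the upkeep and expression of mitochondrial DNA were compared between ages as well. In the vas deferens 1 of 13 genes for replication and upkeep (Top1mt, the mitochondrial topoisomerase, 0.84), 2 of 13 for transcription (Gabpa, 0.34, and Ppargc1b, 0.38) and 1 of 17 for RNA processing and decay (Trmt10c, a subunit of the enzyme that cleaves the 5′ ends of tRNAs, 0.39) were higher, and 0 of each list were lower, beside 11.4% of all genes higher and 8.47% lower. In the caput 1 of the 13 for transcription, Tefm (0.87), an elongation factor, and 2 of the 17 for processing and decay, Slirp (0.53) and Fastkd1 (0.51), which bind mitochondrial RNA, were higher, beside 3.09% of all genes. In the efferent ductules 1 of the 13 for transcription was lower, beside 2.98% of all genes, Ppargc1a (-0.55), a coactivator that promotes mitochondrial biogenesis. In the testis, initial segment, corpus and cauda no gene of these lists passed in either direction.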

How the data were processed

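The authors' deposited files held raw counts, whole numbers of reads per Ensembl gene for each of 56 libraries. Per the labels and the study's methods, total RNA libraries (TruSeq Stranded Total RNA, paired reads of 150 nt) were trimmed with cutadapt, aligned with HISAT2 to mm10 and counted with HTSeq; versions, annotation release, counting mode and strand setting are not given in the sources used here. Row identifiers were joined to GENCODE M21 symbols, and all 37 mt- genes matched. The members and gene lists were chosen with earlier results of these data known.

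Counts were analysed with edgeR 4.0.16 (R 4.3.3, TMM scaling, quasi-likelihood test) for genes that reached 10 counts summed over the libraries of a fit. Ages were compared within each region (8 libraries), each region with the mean of the other 6 at each age (28 libraries), and the age difference over regions with an interaction test (56 libraries). A gene was called at a Benjamini-Hochberg adjusted p under 0.05. CPM values used TMM scaling of all 56 libraries, except the marker sums, which used the uncorrected library totals. Log2 differences are fitted values with standard errors. Shares of counts are of all counts on genes, with a 95% Wilson interval for the highest share, and carry no test. The depth was 11125279 to 20561967 counts per library, and intervals cover counting error only, since reads carried no molecular identifiers.

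Nuclear copies were sought among GENCODE M21 transcripts, by identical stretches of 150 nt and with blastn 2.17.0; the genome itself was not searched. Printed sequences are those transcripts, on GRCm38. On simulated counts the age test recovered 85% of 2-fold and 26% of 1.5-fold changes (efferent ductules, 25482 genes), the regional test 99% of 2-fold and 53% of 1.5-fold changes (vas deferens, 34036 genes) and the interaction test 99% of 4-fold and 50% of 2-fold changes (36558 genes). The simulation gave all genes the same spread and changed only well-counted genes. These percentages therefore do not hold for genes with a wide spread, such as the rRNAs, or with few counts, such as the tRNA genes.

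Named with a test were, per region, at most the 3 largest called changes between ages in each direction, at most the 2 largest between regions at 3 months, and mt-Co1, mt-Cytb, mt-Nd6 and mt-Rnr2; from other lists, at most the 2 largest in each direction, and Gm42418. Other called members, and genes that make up a count of 5 or fewer, were named after their values were seen. Alternatives were DESeq2 1.42.0, other library scalings, other filters, another call rule, 1 fit of all libraries, the replicate number as a block, other shares and leaving out libraries; leaving out the libraries of lowest depth or highest Gm42418 share, and counts without the 5 genes with nuclear copies, were added after seeing the data. Same-numbered libraries of different regions had correlations all above 0.1 in 1 of 21 pairs of regions at 3 months and 0 of 21 at 21 months. This does not exclude shared animals, and no block was used in the main fits.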

Additional observations from a re-analysis of the deposited data

Results flagged for a closer look

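In 3 regions a library stood apart from the other 3 of its group in its mitochondrial rRNA. Among the 4 caput libraries at 3 months, replicate 2 had 4.01% of its counts on mt-Rnr1 and mt-Rnr2 and an rRNA to mRNA ratio of 2.20. Its gap to the nearest library was larger than Dixon's 95% limit for 4 samples allows. Corpus replicate 4 at 3 months, with 7.64% on the rRNAs and a ratio of 2.79, and cauda replicate 2 at 21 months, with 3.36% on the rRNAs, exceeded the limit as well. In all, 56 sets of 4 values were examined, 4 related measures in each of the 14 groups, and 5 values exceeded it. Chance alone gives about 1 in 20 for unrelated sets. The 5 values came from 3 libraries and are not independent.

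For 11 of the 25 mitochondrial genes tested the age difference itself differed between the 7 regions in the fit of all 56 libraries. The adjusted p was 3.26e-07 for mt-Nd4, 2.99e-06 for mt-Cytb, 3.7e-06 for mt-Nd5, 2.08e-05 for mt-Nd2 and 0.000115 for mt-Nd1. It was 0.000514 for mt-Co1, 0.0139 for mt-Atp6, 0.0325 for mt-Co2 and 0.00357 for mt-Rnr1. For the tRNA genes mt-Ts1 and mt-Te, which had few counts, it was 0.000449 and 0.0135.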

How the results depend on the processing

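Precision is limited by 4 libraries per group, by few counts on tRNA genes and on the 5 mRNAs with nuclear copies, and by a large share of Gm42418 in some libraries. Of 646 recomputed counts of called genes 545 stayed within 1.5 times the value given, and of 1690 recomputed differences of single genes 1439 kept their direction and their side of the threshold, 175 lost and 31 gained significance and 45 changed sign. The cause of these changes was not tested. The age-by-region count moved from 11 to 7 without the replicate 2 or replicate 4 libraries. Same-numbered libraries deviated together in every pair of a comparison for 1 of 21 pairs of regions at 3 months and for 0 of 21 at 21 months. This does not exclude that they share an animal, since mean correlations reached 0.188 (caput and corpus, 3 months). The 0 of 7 pairs of ages say nothing on shared animals, because the ages were different mice. With the replicate block, 1 gene instead of 3 was lower in old efferent ductules, and 0 instead of 1 was higher in the efferent ductules at 3 months.

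Between ages, the 6 higher testis genes became 3 with DESeq2, 2 with edgeR's filterByExpr, 0 in the fit of all 56 libraries and 1 by the rule of 1.5-fold at an unadjusted p. In the efferent ductules the 0 higher genes became 1 with DESeq2, with no filter and in the fit of 56, and 2 by the 1.5-fold rule, and the 3 lower genes became 5 with library size alone and 10 without the shallowest libraries. The 6 higher initial segment genes became 3 with filterByExpr and 1 in the fit of 56. In the caput the 6 lower genes became 2 with filterByExpr, 10 with no filter and 13 by the 1.5-fold rule, which also called 1 higher. In the corpus 0 lower genes became 6 with no filter and 1 by the 1.5-fold rule, which called 3 higher in the cauda.

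Between regions at 3 months, the 11 lower testis genes became 7 with DESeq2 and 6 with its size factors. The 1 higher efferent ductule gene became 0 with DESeq2, its size factors, scaling without mitochondrial genes and Gm42418, filterByExpr or no filter, and 2 with library size alone, and the 7 lower became 4 with library size alone and 3 without the 5 copied genes. The 1 higher initial segment gene became 0 with DESeq2 or filterByExpr and 2 with library size alone or without caput replicate 2, which also took the 13 higher caput genes to 6. The 2 higher cauda genes became 1 with a 2-fold minimum, DESeq2, filterByExpr or without the copied genes, the 0 lower became 1 with DESeq2 or library size alone, and the 4 higher vas deferens genes became 2 with DESeq2. At 21 months the 12 lower testis genes became 5 with a 2-fold minimum, DESeq2 or its size factors and 7 with filterByExpr. The 11 higher initial segment genes became 5 with a 2-fold minimum and 7 with DESeq2, the 6 lower caput genes 1 with a 2-fold minimum, and the 8 higher cauda genes 4 with a 2-fold minimum or without the copied genes. Without efferent ductule replicates 1 and 4, 1 caput gene was higher. Per 100 counts on nuclear protein-coding genes, the caput age difference of the mitochondrial share was -3.61 instead of -1.36 percentage points. By that measure the efferent ductule means were 1.65 at 3 and 2.02 at 21 months, which reversed the direction. Without Gm42418 in the totals the difference was 0.16 instead of -0.10 in the efferent ductules and -0.16 instead of -0.70 in the corpus. The ages overlapped in both regions.

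Scaling by library size alone moved the median of all genes by between -0.444 (corpus, 21 months) and 0.398 (efferent ductules, 3 months) on the log2 scale. With it the sign changed for mt-Nd6 in old efferent ductules (-0.28), for mt-Co1 (0.087) and mt-Cytb (0.20) in the efferent ductules at 3 months, for mt-Nd6 in the vas deferens at 3 (0.29) and 21 months (0.17) and for mt-Rnr2 in the initial segment at 21 months (0.023). In the fit of 56 the age difference of mt-Nd6 was -0.029 in the efferent ductules and 0.033 in the vas deferens. With the replicate block it was -0.039 for mt-Nd6 in the efferent ductules and 0.21 for mt-Rnr2 in the corpus, and between regions at 3 months 0.004376 for mt-Cytb in the cauda and 0.004219 for mt-Nd6 in the vas deferens. mt-Nd6 there was 0.021 with filterByExpr, 0.044 with no filter and 0.14 without caput replicate 2. Without that library mt-Rnr2 was 0.20 (initial segment) and -0.40 (caput), and mt-Cytb 0.042 in the cauda. Without efferent ductule replicates 1 and 4 at 21 months mt-Rnr2 was -0.83 between ages there, and against the other regions 0.42 (initial segment) and 0.030 (caput).

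Leaving out replicates in turn gave these ranges. Between ages the testis had 0 to 8 higher genes, the efferent ductules 0 to 1 higher and 0 to 4 lower, the initial segment 1 to 5 higher, the caput 0 to 12 lower and the corpus 0 to 2 lower. mt-Nd6 ranged from -0.29 to 0.20 in the efferent ductules, from -0.25 to 0.15 in the corpus and from -0.13 to 0.16 in the vas deferens, and mt-Rnr2 from -2.02 to 0.78 in the caput and from -0.47 to 0.93 in the corpus. Between regions at 3 months the efferent ductules had 0 to 1 higher and 4 to 6 lower, the initial segment 0 to 2 higher, the caput 6 to 14 higher and 0 to 2 lower, and the cauda 1 to 3 higher and 0 to 1 lower. mt-Cytb ranged from -0.019 to 0.34, mt-Nd6 from -0.28 to 0.028 and mt-Rnr2 from -0.40 to 0.19 for the initial segment, mt-Rnr2 from -0.44 to 2.33 for the caput, mt-Cytb from -0.18 to 0.11 in the cauda and mt-Nd6 from -0.056 to 0.027 in the vas deferens. At 21 months the testis had 6 to 11 lower, the initial segment 5 to 11 higher, the caput 2 to 10 lower and the cauda 1 to 10 higher and 0 to 1 lower. mt-Co1 ranged from -0.047 to 0.070 in the initial segment and from -0.12 to 0.29 in the vas deferens, and mt-Nd6 from -0.21 to 0.24 in the vas deferens. The age-by-region test called 7 to 11 genes. The age difference in the share of all 37 genes, in percentage points, ranged from -0.46 to 0.12 in the efferent ductules, from -2.05 to -0.37 in the caput, the latter without replicate 2 at 3 months, from -1.52 to 0.83 in the corpus, the latter without replicate 4 at 3 months, and from 0.37 to 1.71 in the cauda.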
